A study of Anas platyrhynchos with 20 samples.

Results

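The antioxidant and glutathione genes of the duck were read out in liver and breast muscle after feeding with linseed oil or with duck oil. The list held 47 gene symbols, chosen by function with earlier results of these data known, and 41 of them were found among the 25117 genes of the table. The symbols GSTA2, GSTA3, GSTA4, GSTO1, GSTT1 and KEAP1 were not matched and are not analysed here under these names. Entries described as glutathione S-transferase omega-1 and theta-1 are in the table and are given below with other transferases named by description. The samples came from male Runzhou white-crested ducks (Anas platyrhynchos). All groups were fed their diets for 28 days, from 28 days of age, and were slaughtered at the end of that time. In the linseed oil groups, HL (liver) and HM (breast muscle), the feed held 2% linseed oil. In the control groups, CL (liver) and CM (breast muscle), it held 2% duck oil. Each group had 5 libraries, 20 in all, from 10 male ducks that the study picked at the extremes of n-3 fatty acid content, with the highest ratios for the linseed oil groups and the lowest for the control groups. The study also gives fatty acid values of the sequenced samples. Their mean n-3 content was near that of the whole diet group in CL, HM and CM, and higher in HL. The ducks were picked by content and not drawn at random from each diet group.

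Linseed oil is rich in alpha-linolenic acid, and long polyunsaturated fatty acids are easily attacked by oxygen radicals, which yields lipid hydroperoxides. Cells remove superoxide with superoxide dismutases and the resulting hydrogen peroxide with catalase, peroxiredoxins and glutathione peroxidases. Glutathione, a small thiol peptide made in all cells and exported above all by the liver, feeds the peroxidases and the glutathione transferases, and glutathione reductase restores it with NADPH. Thioredoxin and its reductases do the same for most peroxiredoxins. In mammals, many of these genes are driven by NRF2 (gene NFE2L2), a transcription factor that its inhibitor KEAP1 holds back until electrophiles or oxidants release it.

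Values are FPKM, fragments per gene length, so levels can be compared between genes. They are scaled between libraries by size factors (the median ratio of each library to the average library) and not by the library total, which sets liver values higher against muscle than plain FPKM, scaled by the total of counted fragments, would. The liver libraries held 15417718 to 16705165 counted fragments and the muscle libraries 11852903 to 13432987. Hepatocyte markers summed to 141464 to 211878 FPKM in HL and 156040.0 to 253761 FPKM in CL, against 87.8 to 392 FPKM in HM and 24.1 to 185 FPKM in CM, and skeletal muscle markers to at most 5.72 FPKM in any liver library and at least 31673 FPKM in any muscle library, as the tissue labels say. A pair of libraries stood apart in the antioxidant genes. CL 1 was the lowest of its group in 13 and the highest in 13 of the 38 members above 1 FPKM there. On 1 side alone other libraries had as many, such as HL 4, the lowest in 16, and HL 5, the highest in 15 of 38. HM 2 was the highest of its group in 26 of 38. HM 2 also had a summed FPKM of 597368, against 335064 to 361863 in the other HM libraries. Red blood cell markers (3 genes found) summed to 6.80 to 54.5 FPKM in HM, with a median of 10.3 FPKM, and to at most 15.1 FPKM in CM. These marker sums are given by group, and which HM library was the highest is not given.

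The liver held most of the antioxidant transcripts. Over the 41 genes, the FPKM summed to 8205 ± 1220.0 in HL and 9207 ± 794 in CL, and to 2224 ± 836 in HM and 1969 ± 118 in CM (SD, n = 5 each). Without HM 2 the sum was 1858 ± 201 in HM (n = 4), below that of CM. On plain FPKM the sums were 6483 ± 588 in HL and 6449.9 ± 485 in CL, and 2873 ± 789 in HM and 2783 ± 303 in CM, so the distance between the tissues was smaller. The make-up of that sum differed between the tissues. Glutathione peroxidases took 12.0% to 25.4% of it in HL and 14.1% to 21.8% in CL, and 38.9% to 50.3% in HM and 39.2% to 46.6% in CM. The highest share in HM was that of HM 2, and the others reached 43.3%. The 5 glutathione transferases matched by symbol took 17.7% to 19.6% in HL and 20.2% to 23.3% in CL. Their share was at most 5.84% in any HM library and 4.88% in any CM library. These shares and sums leave out the transferase entries known only by description, which are given below. Among those, LOC101798048 averaged 717 FPKM in HL and 9.15 FPKM in HM, and LOC119713930 averaged 373 and 98.3 FPKM. The share of all transferases was therefore not measured in either tissue. By mean over the 10 liver libraries, the highest member was SELENOP, the plasma carrier of selenium, at rank 48 of all 25117 genes. GPX1, the cytosolic glutathione peroxidase, followed at rank 86 and MGST1, a membrane-bound glutathione transferase, at rank 96. In breast muscle the highest members were GPX3, the secreted glutathione peroxidase, at rank 130, GPX1 at rank 159 and SOD2, the mitochondrial superoxide dismutase, at rank 290. At the other end, SLC7A11, the cystine transporter that supplies cysteine for glutathione, had at most 5 fragments in any liver library and 11 in any muscle library, which is too few for a comparison.

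**Figure D1:**
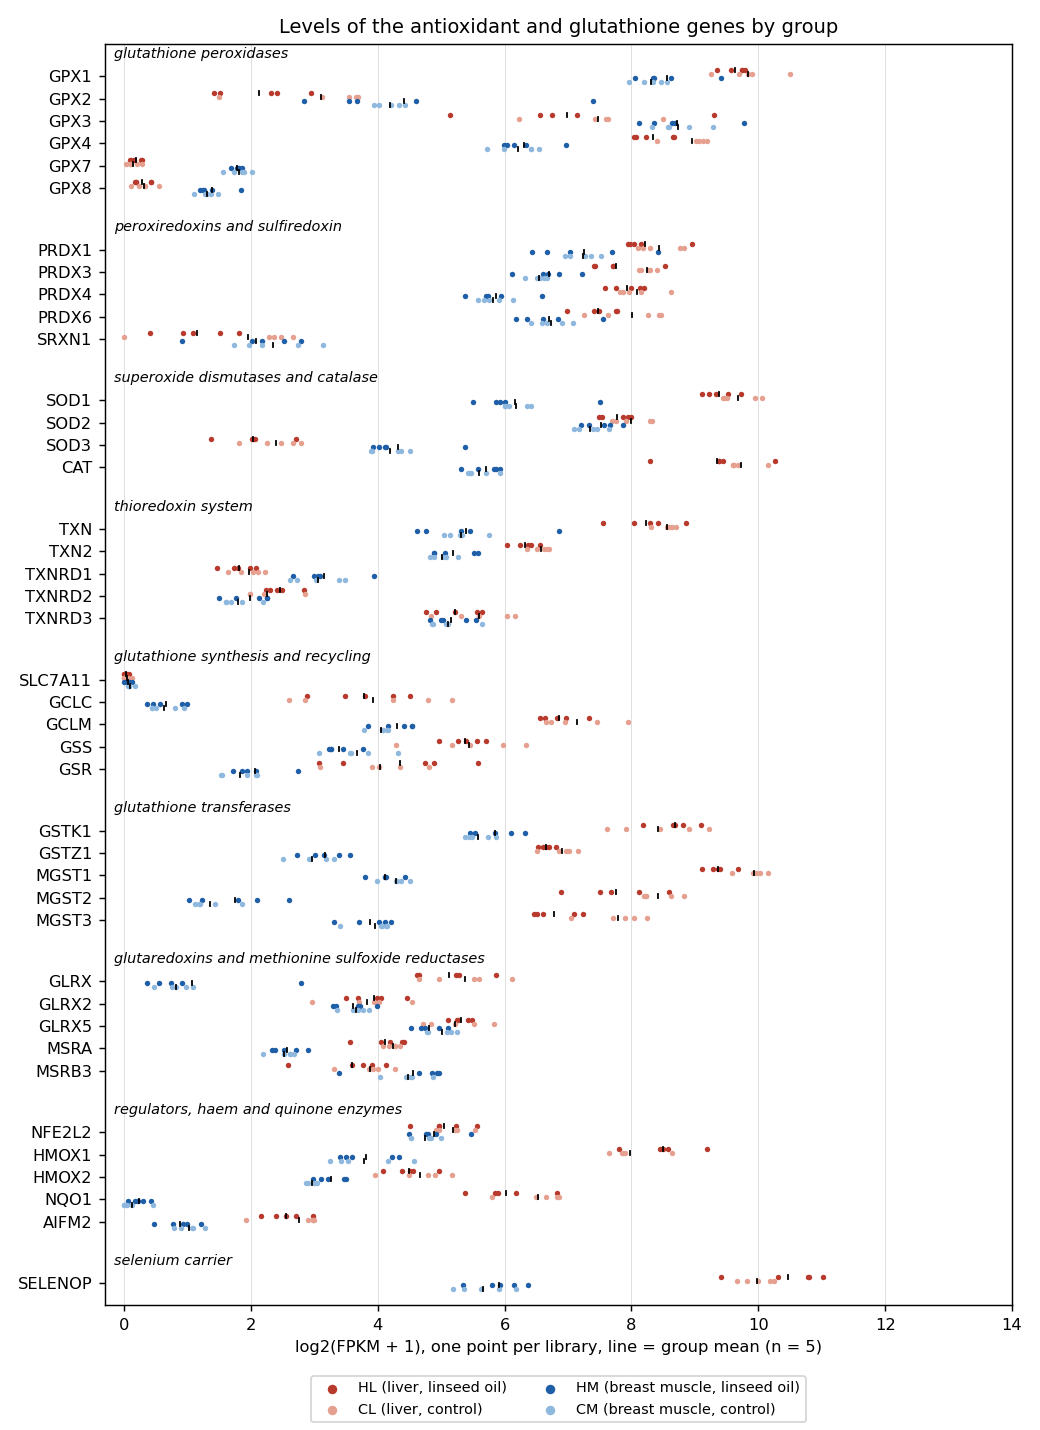
Level of each of the 41 genes in every library, as log2(FPKM + 1), with 1 point per library and a line at the mean of the log values of each group of 5, grouped by role. Most genes lie further right in the liver groups (HL, CL) than in the breast muscle groups (HM, CM), while the 6 genes called higher in muscle (GPX2, GPX3, GPX7, GPX8, SOD3 and TXNRD1) lie further right there.

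The comparison of HL with CL asked which of these genes differed in liver between ducks on linseed oil and on duck oil. No member passed the test, which was limma on log2(FPKM + 1) with a Benjamini-Hochberg adjusted p under 0.05 and a log2 fold change beyond 1. Of 9543 genes tested, 12 (0.126%) were called, and of the 38 members tested, 0 were called. The 5 smallest p-values among them belonged to the 3 membrane glutathione transferases and to 2 glutathione peroxidases, all with lower means in HL. In all, 31 members had a negative and 7 a positive log2 fold change, and the median was -0.24, beside -0.026 over all genes tested. At an unadjusted p under 0.05, 6 members were lower in HL, where 5.42% of all genes were, and 0 were higher, where 6.93% were. Without CL 1, 11 were lower and 2 higher, where 13.4% and 11.1% of all genes were. Without HL 2, HL 4, CL 3 or CL 5, 3 were lower, where 4.25%, 3.3%, 4.03% and 4.61% of all genes were. On plain FPKM, 2 members were lower and 2 higher at that threshold, and the share of all genes there is not given. By sign, 25 members were then negative and 13 positive, and the median of all genes was 0.12. The groups did not separate fully for any of the 38 members, where 2.8% of all genes had no overlap. GPX7, GPX8 and SLC7A11 were too low in liver to be tested.

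The microsomal glutathione transferases MGST1, MGST2 and MGST3 sit in membranes, join glutathione to electrophiles and can reduce lipid hydroperoxides. MGST3 (chromosome 8, 10477986 to 10483061, plus strand, build ZJU1.0) measured 87.2, 89.7, 136, 96.5 and 149 FPKM in HL, against 131, 302, 263, 207 and 238 FPKM in CL. Its HL values all lay below every CL value but that of CL 1, which fell inside the HL range. The log2 fold change was -1.01 (SE 0.25, 95% interval -1.55 to -0.46) with a limma adjusted p of 0.132. MGST1 (chromosome 1, 66512338 to 66521568, plus strand) measured 656, 674, 626, 549.9 and 824 FPKM in HL, against 999, 965, 1142, 1045 and 764 FPKM in CL. A single HL library, HL 5, reached into the CL range, above CL 5. Here the log2 fold change was -0.56 (SE 0.18) and the adjusted p 0.228. MGST2 (chromosome 4, 36689986 to 36700342, minus strand) was more variable, with 118, 204, 383, 179.8 and 277 FPKM in HL and 298, 298, 392, 293 and 454 FPKM in CL, a log2 fold change of -0.66 (SE 0.29) and an adjusted p of 0.387. Only HL 3 lay inside the CL range. GSTK1, a mitochondrial and peroxisomal transferase, went the other way at 0.26, and GSTZ1, which isomerises maleylacetoacetate in tyrosine breakdown, stood at -0.24 on the log2 scale. Summed over the 5 transferases, the FPKM was 1529 ± 241 in HL and 2049.7 ± 233 in CL (SD, n = 5 each).

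Soluble glutathione transferases were present under other names. A further 9 entries of the table are described as glutathione S-transferases without a matching symbol, a list added after the data were seen. Their log2 fold changes between HL and CL were all negative, with a median of -0.76, but 0 were called. At an unadjusted p under 0.05, 6 of the 9 were lower in HL, where 5.42% of all genes were. The smallest changes were -0.077 for the omega-1 entry (LOC101796130) and -0.11 for the theta-1 entry (LOC101797313). The glutathione S-transferase Mu 3-like gene (LOC113839739) measured 132, 144, 174, 115 and 149 FPKM in HL, against 193, 246, 319, 224 and 241 FPKM in CL. These ranges did not overlap, CL 1 included, where 2.8% of all genes had no overlap. The log2 fold change was -0.76 (SE 0.18) with an adjusted p of 0.122. LOC101797566 averaged 263 ± 180.3 FPKM in HL and 548 ± 171 FPKM in CL (SD, n = 5 each), with a log2 fold change of -1.24 and an adjusted p of 0.23. Entries of this family resemble each other, and the study used reads with a unique place in the genome for quantification, which leaves out reads common to near-identical copies, so single entries are uncertain. In breast muscle 4 of the same 9 entries were positive and 5 negative, with a median of -0.020. HM 2 was the highest HM library for all of them but the theta-1 entry, where it was the lowest. LOC101797138 measured 42.5 FPKM in HM 2, against 9.23, 11.2, 6.58 and 9.64 FPKM in the other HM libraries. LOC119713930 measured 190.1 FPKM there, against 72.2, 65.0, 79.0 and 85.3 FPKM. These muscle tallies rested in part on HM 2, and their values without it are not given.

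Among the glutathione peroxidases, GPX4 and GPX2 had the smallest p-values. GPX4 (chromosome 29, 565523 to 567300, plus strand) reduces lipid hydroperoxides inside membranes and is known as the main brake on ferroptosis. It measured 299.9, 404, 408, 261 and 267 FPKM in HL, against 336, 556, 585, 520.1 and 535 FPKM in CL. As with MGST3, CL 1 lay within the HL range and the other 4 control livers above it. Its log2 fold change was -0.63 (SE 0.21, 95% interval -1.09 to -0.16) with an adjusted p of 0.256. GPX2 (chromosome 5, 31107649 to 31108552, plus strand), best known from the epithelium of the gut, was a low gene in liver. It measured 3.98, 1.85, 6.72, 1.66 and 4.35 FPKM in HL, against 1.83, 11.6, 10.7, 7.71 and 11.8 FPKM in CL, from 184 and 410 fragments in the groups. All CL libraries but CL 1 were above all HL libraries. For GPX2 the log2 fold change was -0.98 (SE 0.43) and the adjusted p 0.387. GPX1 was the most abundant of the family, at 799 ± 96.1 FPKM in HL and 952 ± 308 FPKM in CL (SD, n = 5 each), and its log2 fold change of -0.20 was within its error (SE 0.23). Of the members tested in liver, GPX3 had the largest coefficient of variation in HL, 121%. It ranged over 34.2 to 632 FPKM in HL, where HL 1 was the highest, and over 74.2 to 359 FPKM in CL, where CL 1 was.

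Most peroxiredoxins, though not PRDX6, reduce hydrogen peroxide with electrons from thioredoxin, and sulfiredoxin (SRXN1) repairs such peroxiredoxins when they are over-oxidised. All 5 genes of this group had negative log2 fold changes, between -0.80 and -0.15, the second for PRDX4 of the endoplasmic reticulum. PRDX3 (chromosome 6, 31603307 to 31609082, minus strand), the mitochondrial form, is named after its values were seen. It measured 171, 207, 207, 168 and 368 FPKM in HL, against 283, 305, 339, 278 and 313 FPKM in CL, with a log2 fold change of -0.50 (SE 0.22) and an adjusted p of 0.387. HL 5 was above all control livers and the other HL libraries were below all of them. SRXN1, also named after its values were seen, was very low, with 5, 14, 6, 2 and 9 fragments in HL and 0, 27, 19, 26 and 20 fragments in CL. CL 1 had none and the other control livers had more than any HL liver. Its log2 fold change was -0.80 (SE 0.47) and the adjusted p 0.53.

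For the superoxide dismutases and catalase, the log2 fold changes were negative and all 4 intervals spanned 0. SOD1, the cytosolic copper-zinc enzyme, averaged 674 ± 116 FPKM in HL and 833 ± 176 FPKM in CL, a log2 fold change of -0.30 (95% interval -0.73 to 0.14). SOD2 stood at -0.23 (-0.65 to 0.18). Catalase (CAT), the peroxisomal enzyme, measured 311, 669, 664, 696 and 1228 FPKM in HL, against 1138, 786, 821, 776 and 774 FPKM in CL. HL 1 was the lowest and HL 5 the highest of all 10 livers, so the HL range enclosed that of CL. Its log2 fold change was -0.38 (SE 0.31). The extracellular SOD3 was low, at 1.58 to 5.56 FPKM in HL and 2.52 to 5.91 FPKM in CL. In the thioredoxin system, 4 of 5 genes were negative and 1 positive, between -0.37 for TXNRD3 and 0.21 for TXNRD2, both thioredoxin reductases. For glutathione synthesis, the genes GCLC and GCLM (the catalytic and modifier subunits of the limiting enzyme), GSS (glutathione synthetase) and GSR (glutathione reductase) lay between -0.28 for GCLM and 0.31 for GSR, none with an unadjusted p under 0.05. GSR ranged over 7.39 to 47.1 FPKM in HL and 7.51 to 27.0 FPKM in CL, and GCLC over 6.40 to 21.6 FPKM in HL and 5.04 to 34.9 FPKM in CL, and both intervals were wide (GSR -0.70 to 1.33, GCLC -1.24 to 0.95). The glutaredoxins and methionine sulfoxide reductases lay between -0.28 for MSRB3 and 0.10 for GLRX2.

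HMOX1 and SELENOP had the largest positive log2 fold changes of the members in liver, although neither was called. HMOX1 (chromosome 1, 55054734 to 55061053, minus strand), the inducible haem oxygenase, which frees iron from haem and is abundant in macrophages that clear red blood cells, measured 347, 583, 222, 360.2 and 382 FPKM in HL, against 399, 232, 237, 199 and 230.0 FPKM in CL. CL 1 was the second highest of the 10 livers and the other control livers lay between 199 and 237 FPKM. The log2 fold change was 0.52 (SE 0.27, 95% interval -0.057 to 1.11) with an adjusted p of 0.456. SELENOP (chromosome Z, 15382396 to 15391995, minus strand) measured 678, 1266, 2084, 1759.8 and 1785 FPKM in HL, against 1212, 1159.7, 905, 809.6 and 1019.5 FPKM in CL. HL 1 was below all control livers and the other HL livers were above all of them, and the log2 fold change was 0.48 (SE 0.29) and the adjusted p 0.547. NFE2L2 itself averaged 33.1 ± 9.05 FPKM in HL and 35.7 ± 6.46 FPKM in CL (log2 fold change -0.13, 95% interval -0.58 to 0.32). NQO1, the quinone reductase that is a standard NRF2 target in mammals, averaged 67.9 ± 27.3 FPKM in HL and 94.3 ± 24.2 FPKM in CL, with a log2 fold change of -0.50 and an adjusted p of 0.506. AIFM2, which guards membranes by reducing coenzyme Q, stood at -0.20 (-0.70 to 0.31).

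**Figure D2:**
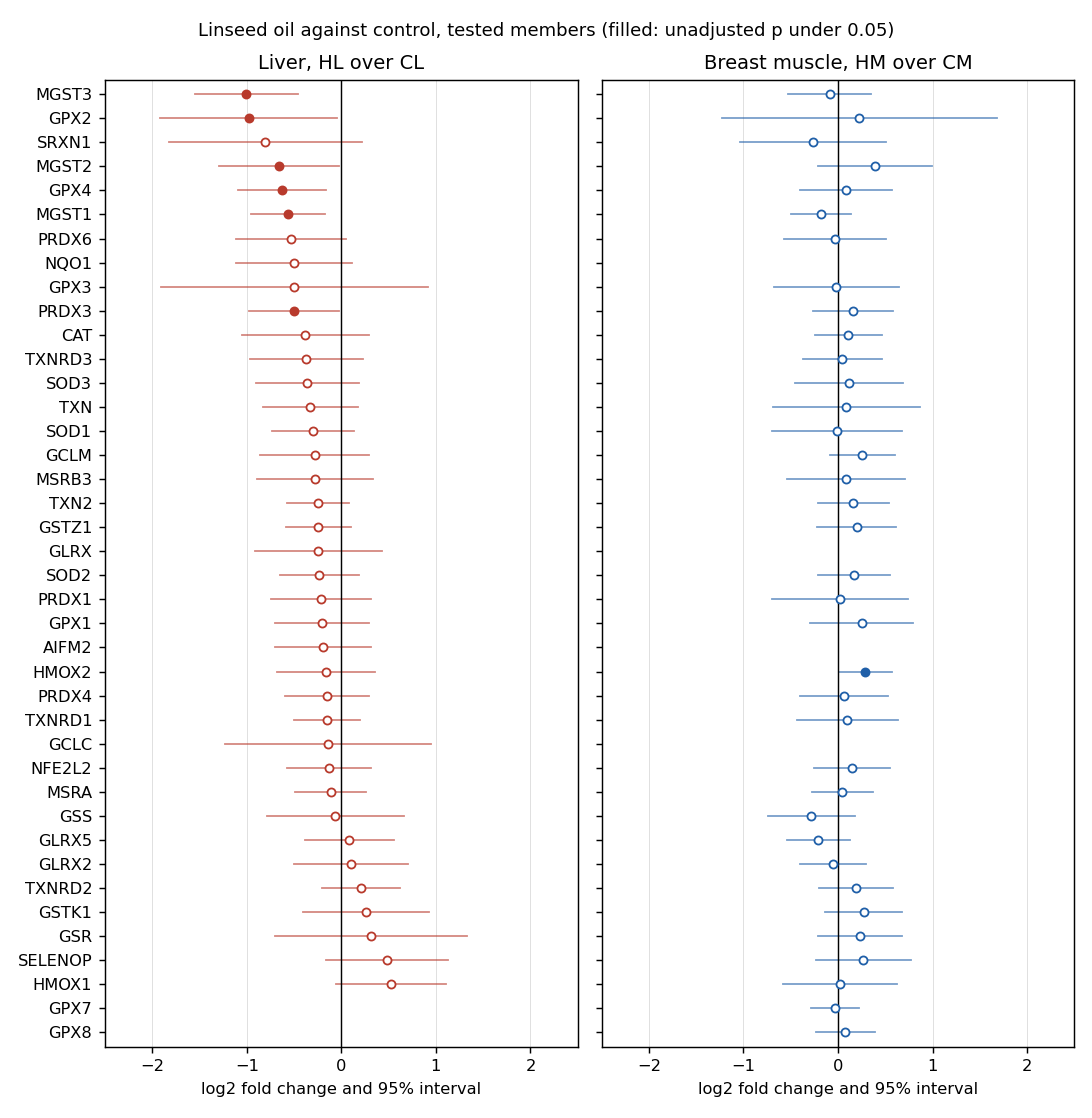
Log2 fold change of each tested member with its 95% interval, HL over CL in liver on the left and HM over CM in breast muscle on the right, in the order of the liver values. In liver 31 of 38 points lie below 0 and in breast muscle 10 of 36, and filled points mark an unadjusted p under 0.05, 6 in liver and 1 in muscle.

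**Figure D3:**
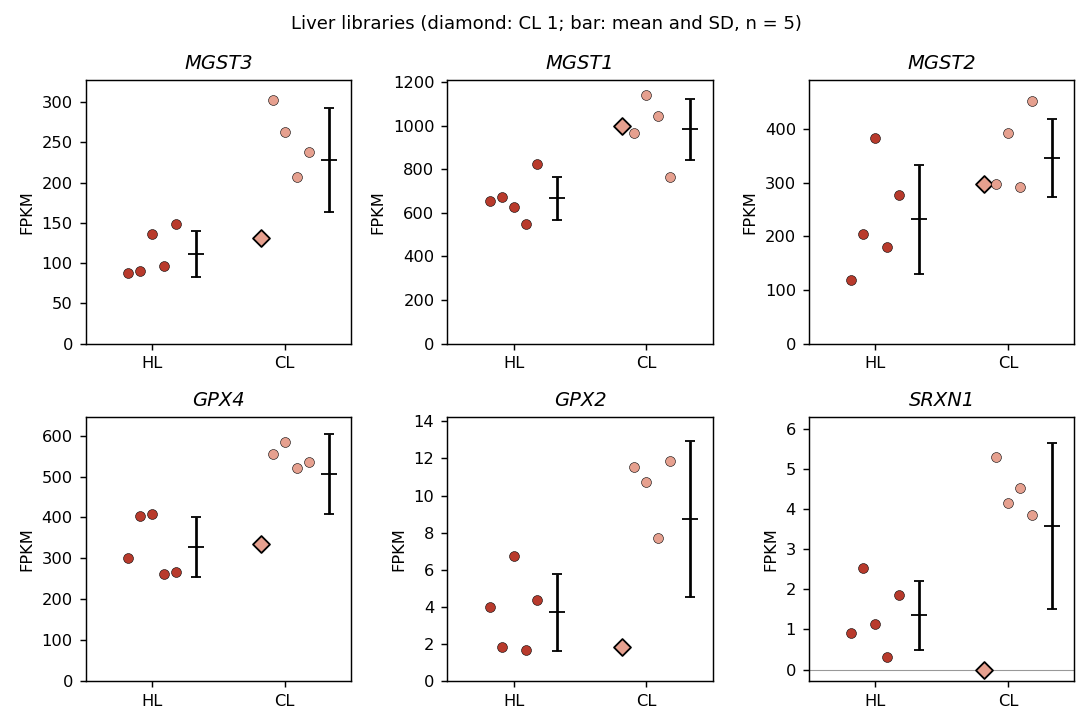
FPKM of 6 members in each liver library, HL on the left and CL on the right of each panel, with the mean and SD of the 5 libraries as a bar. The diamond is CL 1, which lies inside the HL range for MGST3, GPX4 and GPX2, below it for SRXN1 (0 FPKM), and with the other CL values for MGST1 and MGST2.

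Without CL 1, 3 members were called, all lower in HL, where 96 genes in all (1.01%) were called. These were MGST3 (log2 fold change -1.19, adjusted p 0.0302), SRXN1 (-1.29, 0.0374) and GPX2 (-1.38, 0.0455). GPX4 then stood at -0.77 (adjusted p 0.0564), HMOX1 at 0.69 (adjusted p 0.123), AIFM2 at -0.40, GPX1 at -0.35, GPX3 at -0.24 and NFE2L2 at -0.041, and GCLC turned positive at 0.17. The members' median was -0.31, with 30 negative and 8 positive. When all 20 libraries shared 1 estimate of the spread, 83 genes (0.87%) and 1 member, MGST3 (adjusted p 0.0283), were called. The calls on these genes thus changed with 1 control library and with the estimate of the spread.

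Cell markers moved with the liver comparison too. Of 11 macrophage markers, 10 had positive log2 fold changes, 9 with an unadjusted p under 0.05, where 6.93% of all genes were higher. Their summed level was 264 to 826 FPKM in HL and 186 to 248 FPKM in CL, with no marker at 0 throughout. These ranges did not overlap, and the receptor gene MRC1 was called, higher in HL, where 0.126% of all genes were called. Endothelial markers were positive in 10 of 10 tested and summed to 71.2 to 101 FPKM in HL and 24.0 to 54.3 FPKM in CL, with 10 under an unadjusted p of 0.05 and 2 called (CDH5 and STAB2), again without overlap. Hepatocyte markers were negative in 10 of 10, with a median log2 fold change of -0.31 and 0 called. Of these, 2 had an unadjusted p under 0.05, where 5.42% of all genes were lower. In bulk tissue, fewer cells of a type and less RNA per cell cannot be told apart, and the part of these cell types in the member values was not tested.

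The same comparison in breast muscle, HM with CM, gave no called gene at all. Of 10148 genes tested 0 were called (0%), and of 36 members tested 0 were called. The limma test left 1 member with an unadjusted p under 0.05, HMOX2. At that threshold, 2.45% of all genes were higher in HM and 3.04% lower. With 1 library left out, 0 to 3 members passed it, and the share of all genes in those fits is not given. Voom on recovered fragments also called 0 genes. The members' median log2 fold change was 0.087, beside -0.0034 over all genes, with 26 positive and 10 negative. On plain FPKM, 38 members were tested, 19 positive and 19 negative. No member's groups were free of overlap, where 1.23% of all genes were. GCLC, GLRX, NQO1, AIFM2 and SLC7A11 were too low in muscle to be tested.

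HMOX2 (chromosome 15, 6458842 to 6474459, plus strand), the constitutive haem oxygenase, measured 6.93, 10.1, 7.63, 10.3 and 8.33 FPKM in HM, against 6.33, 7.27, 7.14, 7.0 and 6.44 FPKM in CM. The HM range reached further up, with HM 1 inside the CM range, and the log2 fold change was 0.29 (SE 0.13) with an adjusted p of 0.892. The next members by p were GCLM at 0.25, GSTK1 at 0.27, MGST2 at 0.39 and GLRX5, a protein of iron-sulfur cluster assembly, at -0.21 on the log2 scale, with adjusted p of 0.921 to 0.937. For MGST3 and MGST1 the muscle values were -0.089 and -0.18. By role, the thioredoxin system was positive in 5 of 5 genes, with a median of 0.10, the glutathione peroxidases in 4 of 6 (0.082), the peroxiredoxins with SRXN1 in 3 of 5 (0.019), the dismutases and catalase in 3 of 4 (0.11) and the transferases in 3 of 5 (0.20), all on the log2 scale. These tallies rested in part on HM 2. Without it, the thioredoxin system was positive in 3 of 5 genes (median 0.064), the glutathione peroxidases in 1 of 6 (-0.058), the peroxiredoxins with SRXN1 in 1 of 5 (-0.24), the dismutases and catalase in 2 of 4 (-0.032) and the transferases in 3 of 5 (0.096).

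The library HM 2 set the high end of most members in muscle. GPX2 measured 11.7, 168, 6.14, 10.7 and 23.2 FPKM in HM, against 19.3, 15.3, 14.3, 20.6 and 17.4 FPKM in CM. HM 2 was more than any other muscle library, while HM 1, HM 3 and HM 4 were below every control muscle. The log2 fold change was 0.22 (95% interval -1.23 to 1.68) with HM 2 and -0.52 without it. SOD1 measured 57.6, 180.4, 63.2, 44.1 and 60.2 FPKM in HM, against 66.3, 84.6, 63.6, 80.5 and 63.5 FPKM in CM, a log2 fold change of -0.011 with HM 2 and -0.35 without it. TXN, thioredoxin, named after its values were seen, measured 26.0, 115, 38.6, 23.6 and 42.7 FPKM in HM, against 39.0, 53.1, 32.0, 34.1 and 38.2 FPKM in CM, and its log2 fold change was 0.088 with and -0.28 without HM 2. For SOD1 the 4 other HM libraries were below every control muscle, and for TXN HM 1 and HM 4 were. Over all 36 members the median was -0.031 without HM 2, with 17 positive and 19 negative, and still 0 were called. The abundant GPX1 averaged 397 ± 163 FPKM in HM and 319 ± 50.6 FPKM in CM (log2 fold change 0.25, 95% interval -0.29 to 0.79). Values near 0 were found for GPX4 (0.086) and HMOX1 (0.020), while SOD2 (0.17), CAT (0.11), NFE2L2 (0.15) and SELENOP (0.27) were positive, and all of these intervals spanned 0. Without HM 2, GPX1 stood at 0.036, GPX4 at -0.082, HMOX1 at -0.11, SOD2 at 0.089, NFE2L2 at 0.0013 and CAT at 0.21.

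**Figure D4:**
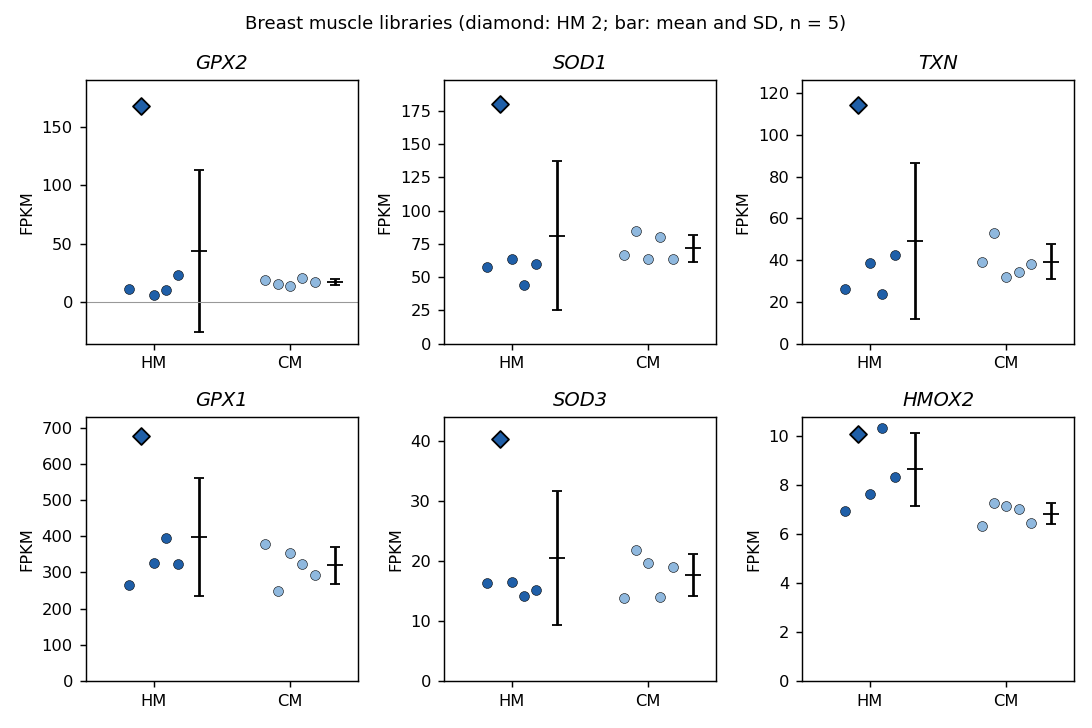
FPKM of 6 members in each breast muscle library, HM on the left and CM on the right of each panel, with the mean and SD of the 5 libraries as a bar. The diamond is HM 2, which is the highest muscle library in 5 of the panels and the second highest for HMOX2.

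Whether the diet difference itself differed between the tissues was tested as the difference of the log2 fold changes, HL over CL minus HM over CM, in 1 fit of all 20 libraries. Of 11256 genes, 1 (0.00888%), the macrophage receptor gene MRC1, was called, and 0 of 40 members were called. The members had 32 negative and 8 positive differences, with a median of -0.40, beside -0.0075 over all genes. At an unadjusted p under 0.05 there were 4 members, all negative, where 8.11% of all genes passed in either direction. This count was 8 without CL 1 and 2 without HL 4 or HM 2, and the share of all genes in those fits is not given. The 4 members of the main fit were MGST3 at -0.92 (SE 0.33, adjusted p 0.39), MGST2 at -1.05 (SE 0.41, adjusted p 0.474), GPX4 at -0.71 (adjusted p 0.553) and PRDX3 at -0.66 (adjusted p 0.562). NQO1 followed at -0.62 (adjusted p 0.646). The test did not show for any member that liver and muscle responded differently. Without HM 2 the members' median was -0.21, with 28 negative and 12 positive. On plain FPKM the members' median was -0.12, with 26 negative and 14 positive. There 2 members had an unadjusted p under 0.05, both positive, and the share of all genes is not given.

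The tissues differed in many more of these genes than the diets did. In the linseed oil ducks, HL against HM, 30 of 40 members tested were called, where 40.2% of 10449 genes were. Of these members 24 were higher in liver, where 19.8% of all genes were, and 6 in breast muscle, where 20.4% were. The control ducks, CL against CM, gave 32 of 40 members, where 42.3% of 10529 genes were called. Here 26 members were higher in liver, beside 20.4% of all genes, and 6 in muscle, beside 21.9%. The median log2 fold change of the members was 1.40 for HL over HM and 1.71 for CL over CM, with 0.0072 and 0.023 over all genes. The comparisons share no library. Within each, liver and muscle libraries were treated as independent, although there were fewer ducks than libraries. All 24 liver genes of the linseed oil ducks were among the 26 of the control ducks (92.3% of those), with PRDX1 and PRDX6 added in the control ducks, and the 6 muscle genes were the same in both.

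The 6 members with the largest log2 fold changes of liver over muscle were the same in both comparisons, MGST2, NQO1, MGST1, HMOX1, SELENOP and GLRX. MGST2 averaged 232 ± 102 FPKM in HL and 2.64 ± 1.62 FPKM in HM, and 347 ± 72.8 FPKM in CL and 1.62 ± 0.608 FPKM in CM (SD, n = 5 each). The log2 fold changes were 6.01 and 7.06. NQO1 ranged over 40.6 to 113 FPKM in HL and 0.0442 to 0.35 FPKM in HM, and over 55.1 to 115 FPKM in CL and 0 to 0.373 FPKM in CM. In muscle it rested on at most 9 fragments a library, so its log2 fold changes of 5.79 and 6.40 depend on the 1 FPKM added before the logarithm. MGST1 stood at 5.25 and 5.64, HMOX1 at 4.69 and 4.19, SELENOP at 4.55 and 4.33, and GLRX, the cytosolic glutaredoxin, at 4.06 and 4.55 on the log2 scale. CAT (3.65 and 4.13), SOD1 (3.22 and 3.51), GPX4 (2.03 and 2.75), AIFM2 (1.68 and 1.73) and GPX1 (1.08 and 1.53) were also called in both. GPX1 lost its call in HL against HM without HM 1, at 0.95, and on plain FPKM, without the size factors that the deposited values carry, at 0.35 for HL over HM and 0.53 for CL over CM.

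The rest of the 24 genes called higher in liver in both comparisons spanned synthesis, transfer, repair and peroxide removal. For glutathione synthesis and recycling, the log2 fold changes of HL over HM and CL over CM were 3.13 and 3.30 for GCLC, 2.56 and 3.10 for GCLM, 1.99 and 1.77 for GSS, and 2.28 and 2.20 for GSR. GCLC had at most 0.989 FPKM in any muscle library. The other transferases stood at 2.91 and 3.83 (MGST3), 2.83 and 2.84 (GSTK1), and 3.49 and 3.93 (GSTZ1). Both thioredoxins were among them, the cytosolic TXN at 2.83 and 3.25 and the mitochondrial TXN2 at 1.14 and 1.55, as was MSRA, which repairs oxidised methionine, at 1.55 and 1.71. Of the peroxiredoxins, PRDX4 stood at 2.06 and 2.27 and PRDX3 at 1.06 and 1.71, while PRDX1 and PRDX6, both of the cytosol, were called in CL against CM and not in HL against HM, at 0.97 and 1.20 for PRDX1 and 0.77 and 1.27 for PRDX6, a difference that did not pass the test of diet by tissue. PRDX1 was also called in HL against HM without HL 1, HL 3, HL 4, HM 2 or HM 5. PRDX3 was not called in HL against HM without HL 5 or without HM 1. HMOX2 stood at 1.24 and 1.69. On plain FPKM, HMOX2, MSRA, PRDX3 and TXN2 were called in neither comparison, and GSS, PRDX1 and PRDX6 were not called in CL against CM. Of the 9 glutathione transferases named by description, 6 were called in HL against HM and 8 in CL against CM, all higher in liver. Of all genes, 19.8% and 20.4% were called higher in liver in these comparisons. Calls of the 9 entries on plain FPKM are not given.

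Higher in breast muscle were 4 glutathione peroxidases, the extracellular dismutase and a thioredoxin reductase. GPX7 and GPX8, peroxidases of the endoplasmic reticulum, were near 0 in liver. GPX7 measured 0.0739 to 0.216 FPKM in HL and 2.22 to 2.62 FPKM in HM, and 0.0202 to 0.215 FPKM in CL and 1.97 to 3.07 FPKM in CM. Their log2 fold changes of -1.60 and -1.67 for GPX7 and of -1.11 and -1.0 for GPX8 understate the ratio because 1 FPKM was added. GPX8 was at the edge of the fold threshold, and its call was lost in HL against HM without HM 2 and in CL against CM without CL 4, CL 5, CM 3 or CM 5. SOD3 averaged 3.29 ± 1.43 FPKM in HL and 20.6 ± 11.2 FPKM in HM, and 4.42 ± 1.34 FPKM in CL and 17.7 ± 3.57 FPKM in CM, with log2 fold changes of -2.28 and -1.80. The remaining calls were less firm. GPX3 stood at -1.74 (adjusted p 0.0252) and -1.26 (adjusted p 0.00606), and its call in HL against HM was lost, with an adjusted p of 0.0504 to 0.0617, when HL 3, HL 4, HL 5 or HM 2 was left out. In CL against CM it was -0.95 without CL 5. GPX2 stood at -2.29 and -1.09. Without HM 2 the first was -1.54, and without CL 1 the second was -0.69. With all 20 libraries in 1 fit, its adjusted p in CL against CM was 0.115. TXNRD1, the cytosolic thioredoxin reductase, stood at -1.34 and -1.08, and without CL 3, CM 4 or CM 5 the second lay between -1.0 and -0.98, at the edge of the fold threshold.

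A further 8 members were called in neither tissue comparison, SOD2, NFE2L2, TXNRD2, TXNRD3, GLRX2, GLRX5, SRXN1 and MSRB3. On plain FPKM, SRXN1 and MSRB3 were called in both, higher in muscle, and in HL against HM SRXN1 was also called without HL 2, HL 5 or HM 5 and MSRB3 without HL 3, HL 5 or HM 2. SOD2 averaged 219 ± 34.9 FPKM in HL and 185 ± 33.4 FPKM in HM, and 259 ± 54.6 FPKM in CL and 164 ± 25.7 FPKM in CM. NFE2L2 averaged 33.1 ± 9.05 FPKM in HL and 29.4 ± 8.20 FPKM in HM, and 35.7 ± 6.46 FPKM in CL and 26.0 ± 3.88 FPKM in CM. Their log2 fold changes were 0.24 (-0.16 to 0.64) and 0.65 (0.24 to 1.05) for SOD2, and 0.16 (-0.32 to 0.64) and 0.44 (0.090 to 0.79) for NFE2L2, below the fold threshold, although both had an adjusted p under 0.05 in the control ducks (0.008 and 0.0281). The scale of the tissue comparison rests on the deposited normalisation. On plain FPKM the median of all genes was -0.60 for HL over HM and -0.82 for CL over CM. Of the 40 members tested, 19 were then called higher in liver and 8 in muscle for HL against HM, where 1329 and 3619 of 10523 genes were. For CL against CM the members' counts were 18 and 8 of 40, where 1200 and 4551 of 10702 genes were called. Relative to the median of all genes, the members' median was 1.34 and 1.60, beside 1.39 and 1.69 on the deposited scale. Not set against that median, the plain values turned negative for SOD2 (-0.48 and -0.35) and NFE2L2 (-0.54 and -0.54). TXNRD2, TXNRD3, GLRX2 and GLRX5 turned negative as well in both comparisons. SOD2 and NFE2L2 still lay above the median of all genes in each comparison.

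**Figure D5:**
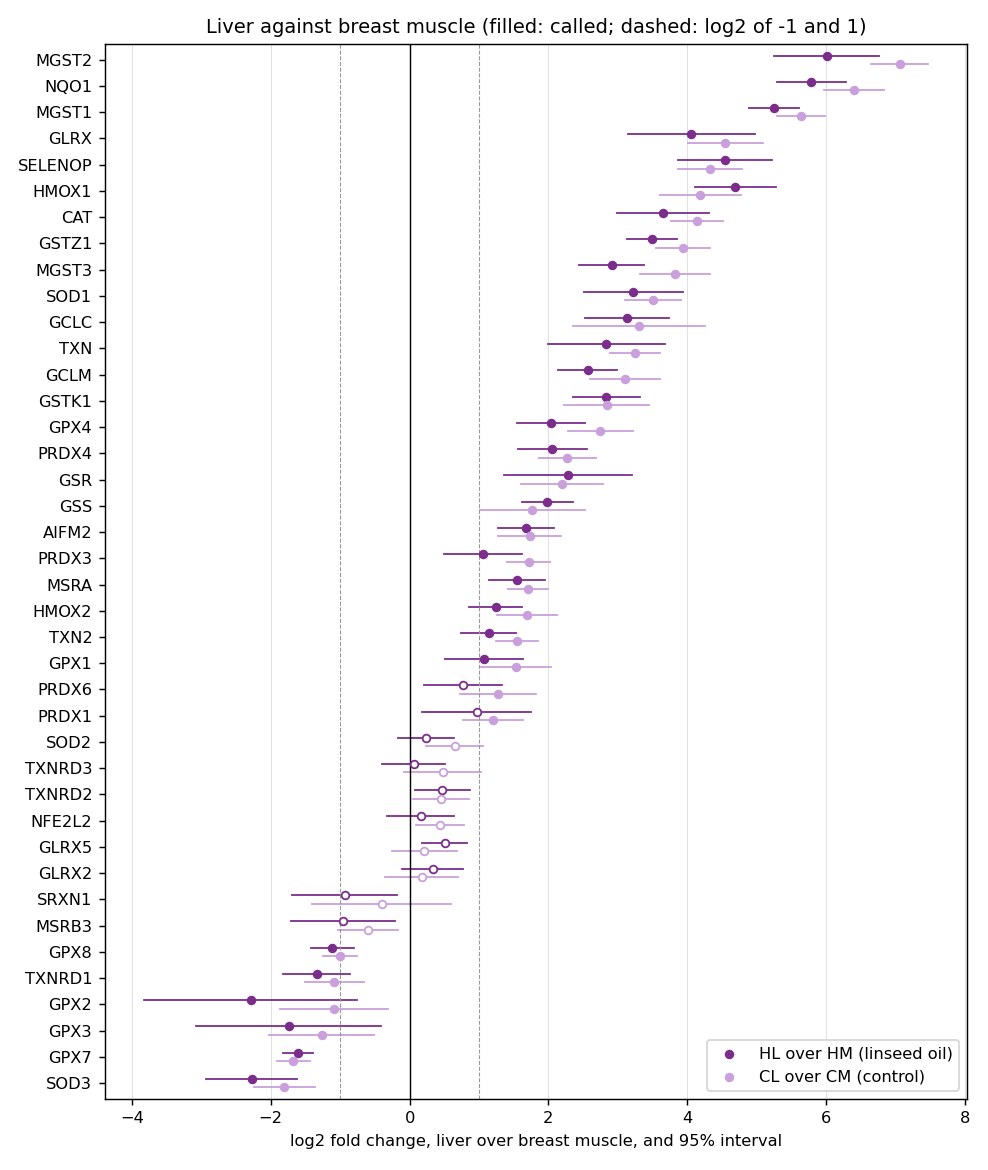
Log2 fold change of liver over breast muscle with its 95% interval for the 40 tested members, in the linseed oil ducks (HL over HM, dark) and the control ducks (CL over CM, light), with filled points for called genes. MGST2 and NQO1 are at the top, with log2 fold changes of 6.01 and 5.79 for HL over HM, and SOD3 has the lowest value of CL over CM, at -1.80.

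Genes around these enzymes were followed in 9 further lists, and none of their genes was called in either diet comparison. Of the genes that make NADPH, the reducing agent of both systems, 13 were found and 11 tested in liver, 8 negative and 3 positive, with a median of -0.34 on the log2 scale. Other thiol and peroxide enzymes were negative in 11 of 13, and 4 of these had an unadjusted p under 0.05, namely SESN2, a sestrin (-0.99, adjusted p 0.247), TXNDC12 (-0.68), PARK7 (-0.40) and CCS, the copper chaperone of SOD1 (-0.42). Selenoproteins and their synthesis were negative in 11 of 18, with a median of -0.068, and SELENOK had an unadjusted p under 0.05 (-0.84). Partners and targets of NRF2 were divided, 9 positive and 8 negative. OSGIN1 (1.57, adjusted p 0.273), ABCC3 (0.32) and TBXAS1 (0.95) were on the positive side at an unadjusted p under 0.05, and MAFF (-0.54) on the negative. Among sources of reactive oxygen, 9 of 14 were positive, and those under 0.05 included SMOX, spermine oxidase (0.60). Lipid peroxidation and its repair counted 15 negative and 10 positive genes, with TTPA, the transfer protein of vitamin E (-0.72), and the aldehyde dehydrogenases ALDH2 (-0.63) and ALDH9A1 (-0.58) negative and PLA2G7 (1.12) positive at that threshold. The lists for glutathione export and breakdown (4 positive, 9 negative), other glutathione transferases (0 and 2) and metal carriers (1 and 4) held 1 gene under 0.05, GGT5, a gamma-glutamyltransferase (0.84). In breast muscle the smallest adjusted p of these lists was that of SQSTM1, an autophagy receptor and NRF2 target in mammals, at 1.05 (SE 0.22, adjusted p 0.423). All of these genes outside the list of members were named after their values were seen. At an unadjusted p under 0.05 in liver, 6.93% of all genes were higher in HL and 5.42% lower.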

How the data were processed

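RNA-seq of liver and breast muscle from 20 libraries was analysed from 1 deposited table of FPKM. The authors aligned reads with HISAT2 2.0.5 to the duck genome ZJU1.0 and used uniquely mapped reads for quantification, and the counting tool and its strand setting are not given in the sources used here. Each deposited FPKM multiplied by gene length was a whole multiple of 1 step per library (100% of values, tolerance 0.01), and these steps followed median-of-ratios size factors over all 20 libraries, so the deposited FPKM were already scaled across libraries. Groups came from the labels. Genes with FPKM of at least 1 in at least 5 fitted libraries were tested with limma 3.58.1 in R 4.3.3 (trended empirical Bayes) on log2(FPKM + 1), pseudocount 1. A gene was called at a Benjamini-Hochberg adjusted p under 0.05 over all genes tested and a log2 fold change beyond 1. Fold changes on this scale understate those of low genes. The p-values measure the spread between the ducks sequenced, which the study chose by fatty acid content. Members and lists were chosen with earlier results of these data known. Named members were those called in a diet comparison, the 5 smallest p in each and the 5 largest called changes each way between tissues. The 3 highest per tissue and a set fixed by role were added. Other members, given within their role or as the end of a range, were not picked by this rule. Of these, PRDX3, SRXN1 and TXN are marked as named after their values were seen. Alternatives were another pseudocount, other filters, all libraries in 1 fit, voom on the recovered fragments, no fold threshold, a replicate block, each library left out in turn and, added after the data were seen, plain FPKM. Chromosome numbers were given to the sequences of ZJU1.0 by where at least 98.2% of each sequence's genes lie in RefSeq's newer duck assembly, and positions are those of the deposited table.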

Additional observations from a re-analysis of the deposited data

Results flagged for a closer look

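Of 152 groups of 5 libraries (a member in 1 of the 4 groups), 15 held a library far from the other 4 by Dixon's ratio on log2(FPKM + 1). Chance alone marks about 1 in 20 groups. CL 1 accounted for 7 of them. It was the lowest control liver for GPX2 at 1.83 FPKM (others 7.71 to 11.8), GPX4 at 336 FPKM (others 520.1 to 585), AIFM2 at 2.78 FPKM (others 6.50 to 6.98) and SRXN1 at 0 FPKM (others 3.86 to 5.31), and the highest for HMOX1 at 399 FPKM (others 199 to 237), CAT at 1138 FPKM (others 774 to 821) and TXNRD2 at 6.21 FPKM (others 2.94 to 3.69). HM 2 accounted for 4. It was the highest of HM for SOD1 at 180.4 FPKM (others 44.1 to 63.2), SOD3 at 40.5 FPKM (others 14.2 to 16.5) and GLRX at 5.92 FPKM (others 0.282 to 0.877), and the lowest for MSRB3 at 9.46 FPKM (others 24.0 to 30.3). HL 5 was the highest of HL for PRDX1 at 498 FPKM (others 246 to 282) and PRDX3 at 368 FPKM (others 168 to 207). In control muscle, CM 1 was the lowest for MGST3 at 9.61 FPKM (others 15.6 to 16.6) and CM 3 for GCLM at 12.8 FPKM (others 15.7 to 16.9).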

How the results depend on the processing

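Of the members' counts, that of HL against CL moved, to 1 with all 20 libraries in 1 fit and over 0 to 3 with 1 library left out. For HM against CM and the difference between tissues it stayed 0 in all settings run. Of HL against HM it was 28 to 32 and of CL against CM 30 to 32 with 1 library left out. Over all genes, the 12 calls of HL against CL became 5 with a pseudocount of 0.1, 3 without a filter, 4 at FPKM of at least 5, 83 with all 20 libraries, 30 with voom, 21 with no fold threshold, 24 on plain FPKM and 3 to 96 with 1 library left out (HL 4, CL 2 or CL 5 for 3, CL 1 for 96, HL 3 for 60). HM against CM went to 3 with all 20 libraries, 1 on plain FPKM and 0 to 1 with 1 left out. Without a fold threshold, HL against HM had 6665 calls (4203 with it) and CL against CM 7025 (4456). The difference between tissues had 0 calls with a pseudocount of 0.1 or voom, 2 on plain FPKM and 1 to 50 with 1 library left out (50 without HL 3).

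With the replicate number as a block (for tissues, diet and number together), HL against CL had 0 calls, HM against CM 1, HL against HM 4206 with 30 members, CL against CM 4463 with 32 members, and the difference between tissues 0, with no member called in a diet comparison. Between diets, equal numbers belong to different ducks and no label ties them, so the block of the diet comparisons is an arbitrary pairing. Between tissues, the labels do not say whether equal numbers mark 1 duck. There were fewer ducks than libraries, so a duck could give both tissues. The main fits treated all libraries as independent, and their p-values between tissues take no account of shared ducks. Correlations of same-numbered libraries' deviations from their group means ran from -0.167 to 0.317 for HL and HM and from 0.0117 to 0.287 for CL and CM, and a library's own number was not always its best match, so the numbers were not taken to pair the libraries.

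Plain FPKM moved the median of all genes to 0.12 in HL against CL (from -0.026) and the members' to -0.065, so relative to all genes it was -0.18 (beside -0.22). Signs were followed across settings for chosen members in each comparison, not for all. Among these, plain FPKM turned the sign of NFE2L2 in HL against CL (0.044), HL against HM (-0.54) and CL against CM (-0.54). It also turned SOD2 in HL against HM (-0.48) and CL against CM (-0.35). In HM against CM, GPX4 (-0.011), HMOX1 (-0.072) and TXN (-0.0098) turned. Members not followed turned too, such as PRDX4 (0.025) and GCLC (0.022) in HL against CL and GLRX5 (-0.20) in HL against HM. With 1 library left out, some log2 fold changes of the members followed also turned. In HL against CL, NFE2L2 ran from -0.26 to 0.0051. In HM against CM the ranges were -0.11 to 0.22 for HMOX1, -0.35 to 0.16 for SOD1 and -0.52 to 0.62 for GPX2. They were -0.082 to 0.17 for GPX4 and -0.28 to 0.28 for TXN. The cause was not tested. Low depth limits SRXN1, GPX2, GPX7, GPX8, SOD3 and SLC7A11 in liver. In muscle it limits NQO1, GLRX, MGST2, GCLC, AIFM2, SRXN1 and SLC7A11.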
